A study of Homo sapiens with 6 samples.

Results

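NF-kappaB is a family of dimeric transcription factors, and the genes described here are its subunits (NFKB1, NFKB2, REL, RELA, RELB), its IkB inhibitors (NFKBIA, NFKBIB, NFKBIE) and the catalytic kinases that release it (IKBKB, CHUK). All probe sets annotated to these 10 symbols were taken, of 18377 genes measured in all, and each symbol had 1 probe set. They were compared between TF-1 cells that carried human PRL-3 (3 arrays, numbered 4 to 6) and TF-1 cells that carried a control vector, pEGFP (3 arrays, numbered 1 to 3). PRL-3 is the tyrosine phosphatase encoded by PTP4A3, TF-1 is an established human line labelled as acute myeloid leukaemia, and the series asked what PRL-3 does in leukaemia development. The medium of both groups was RPMI plus 10% FBS and 5 ng/ml human IL-3, a growth factor for these cells. Whether a group was 1 clone or a pool, and whether its 3 arrays stem from different cultures, is not stated in the labels. The p-values below therefore reflect variation among these arrays alone, and that variation may be technical.

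In resting cells IkB proteins hold NF-kappaB dimers in the cytoplasm. In the canonical route, receptors for tumour necrosis factor, interleukin-1 or microbial products switch on the IKK complex, whose kinase IKBKB marks IkB for destruction, so that dimers such as RELA with the processed NFKB1 product enter the nucleus. In the alternative route MAP3K14 acts through CHUK, which leads to processing of the NFKB2 precursor and frees RELB. The precursors of NFKB1 and NFKB2 end in IkB-like repeats and act as inhibitors until they are processed. NFKBIA, NFKB1, NFKB2, REL and RELB are themselves textbook target genes of NF-kappaB. In blood cells the pathway is best known for inflammatory signalling and survival.

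Of the 10 genes, NFKB1 was lower with PRL-3, to 65.6% of control, and CHUK was higher, by 1.41-fold. The other 8 did not pass the test. The promoters of these 2 genes are shown because they carried the differences, as RefSeq sequence of GRCh38.p14 from 250 bases before the annotated start, 5′ to 3′ on the gene's strand. Capitals mark a match to the kappaB consensus, the DNA motif that NF-kappaB dimers bind, searched on both strands.
NFKB1 (chr4:102501109-102501358, plus strand): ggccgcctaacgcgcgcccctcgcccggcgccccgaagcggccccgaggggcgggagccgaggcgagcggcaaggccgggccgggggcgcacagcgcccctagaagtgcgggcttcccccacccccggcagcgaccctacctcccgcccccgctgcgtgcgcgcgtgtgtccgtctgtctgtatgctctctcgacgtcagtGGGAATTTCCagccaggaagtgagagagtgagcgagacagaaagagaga
CHUK (chr10:100229597-100229846, minus strand): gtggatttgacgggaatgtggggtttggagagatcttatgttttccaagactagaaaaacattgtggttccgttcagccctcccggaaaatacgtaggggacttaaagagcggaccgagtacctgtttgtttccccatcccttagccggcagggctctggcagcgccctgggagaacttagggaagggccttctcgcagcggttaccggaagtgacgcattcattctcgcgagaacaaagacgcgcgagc
The NFKB1 window held 1 match, from 49 to 40 bases before the start, and the CHUK window held 0, which says only that these letters were not in this window. A second annotated NFKB1 start had 0 matches.

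Sites in other family genes are given for comparison with the NFKB1 match, each with its flanks.
REL (chr2:60881518-60881546): gtcagccgcGGGAAATTCCCctcccgcca
NFKB2 (chr10:102394462-102394490): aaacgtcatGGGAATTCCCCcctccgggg
NFKBIA (chr14:35404811-35404840, minus strand): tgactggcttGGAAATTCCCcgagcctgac
NFKBIB (chr19:38899932-38899960): ggcgtggtgGGGAATTTCCCgcagggcgg
The REL, NFKB2 and NFKBIB runs are overlapping matches. The NFKB2 run is the first of 4 such sites before later annotated starts of that gene, and the NFKBIB site also precedes a later start. In all, 7 of the 10 genes had a sequence in the table, and 5 of these 7 had a match before at least 1 of their starts, the 2 without being RELA and CHUK. Counted by window, 6 of their 12 windows of 250 bases held a match, against 9.96% of all 35116 windows in RefSeq, and windows of 1 gene are not independent. A match is a description of the letters and not a bound site.

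The transfected gene checked the labels first: the log2 intensity of PTP4A3 was 7.97 ± 0.0563 without and 10.84 ± 0.0759 with PRL-3 (SD, n = 3 each). Median intensity per array ran from 89.8 to 92.9. Control 1 and PRL-3 5 stood at the same end of the leading component of variation inside the groups (share 0.639 of that variance), and control 3, the lowest control array for NFKB1, stood farthest out at the other end. NFKB1 and CHUK are therefore also given without control 1 and PRL-3 5 and without control 3. Of 11 measured erythroid and progenitor markers of the line, 3 passed limma, or 27.3% against 7.69% of all genes: KIT (1.01) and CSF2RA (0.27) were higher with PRL-3 and TFRC (-0.52) lower. An unadjusted p under 0.05 in limma was found for 8 of the 11, against 36 of the 127 pathway genes listed below. The share of all genes with such a p is not given here. For 5 of the 11 markers every PRL-3 array lay on the same side of every control array, against 24.3% of all genes. Among those that did not pass, CSF2RB differed by -0.57, CD34 by -0.44, TAL1 by -0.28, IL3RA by 0.49 and GATA2 by 0.47 (log2). The summed log2 level of this list ran from 93.2 to 96.6 in control and from 93.4 to 97.0 with PRL-3, its median percentile among all genes in control was 78.7, and its part in the results below was not tested. The lymphocyte list had a median percentile of 22.3 and the monocyte and macrophage list of 16.8. Of the monocyte and macrophage markers 1 of 10 was higher with PRL-3 (VSIG4, 0.58, not past the threshold without PRL-3 6, adjusted p = 0.0524 in limma) and 0 were lower. The summed log2 level of that list ran from 56.0 to 57.9 in control and from 57.2 to 57.4 in PRL-3 arrays, and its part in the results below was not tested. Of 10 lymphocyte markers 0 passed limma and 0 had an unadjusted p under 0.05, and their sum ran from 57.3 to 58.5 in control and from 57.4 to 58.3 with PRL-3. Of 12 fibroblast, epithelial and endothelial markers 0 passed limma and 2 had an unadjusted p under 0.05, with sums of 79.0 to 79.6 and 78.6 to 79.5. The deposited table holds no detection call, so no marker can be called absent.

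NFKB1 encodes the precursor of the DNA-binding p50 subunit. It read 9.13, 9.18 and 8.93 in control arrays 1 to 3 and 8.51, 8.48 and 8.43 in PRL-3 arrays 4 to 6 (log2 intensity). All 3 PRL-3 arrays lay below all 3 control arrays, and control 3 was the lowest of its group. On the linear scale the control arrays read 562.0, 579.8 and 488.1 and the PRL-3 arrays 363.7, 357.9 and 345.0. The mean fell from 9.08 ± 0.132 to 8.47 ± 0.039 (log2, SD, n = 3 each), a difference of -0.61 ± 0.0825 (log2, SE, 95% interval -0.80 to -0.42) with adjusted p = 0.0043 in limma. The control level was thus 1.52-fold that with PRL-3. In these bulk samples fewer cells with the transcript and less transcript per cell cannot be told apart. Of all 18377 genes 126 had a lower difference than NFKB1.

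CHUK encodes IKK-alpha, the kinase of the alternative route and a part of the canonical IKK complex. It read 8.83, 8.86 and 8.85 in control arrays and 9.31, 9.24 and 9.48 in PRL-3 arrays (log2 intensity). The groups did not overlap, and the control arrays lay much closer together than the PRL-3 arrays. The mean rose from 8.84 ± 0.014 to 9.34 ± 0.124 (log2, SD, n = 3 each), a difference of 0.50 ± 0.079 (log2, SE, 95% interval 0.31 to 0.68) with adjusted p = 0.00843 in limma. Of all genes 494 had a higher difference than CHUK.

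**Figure D1:**
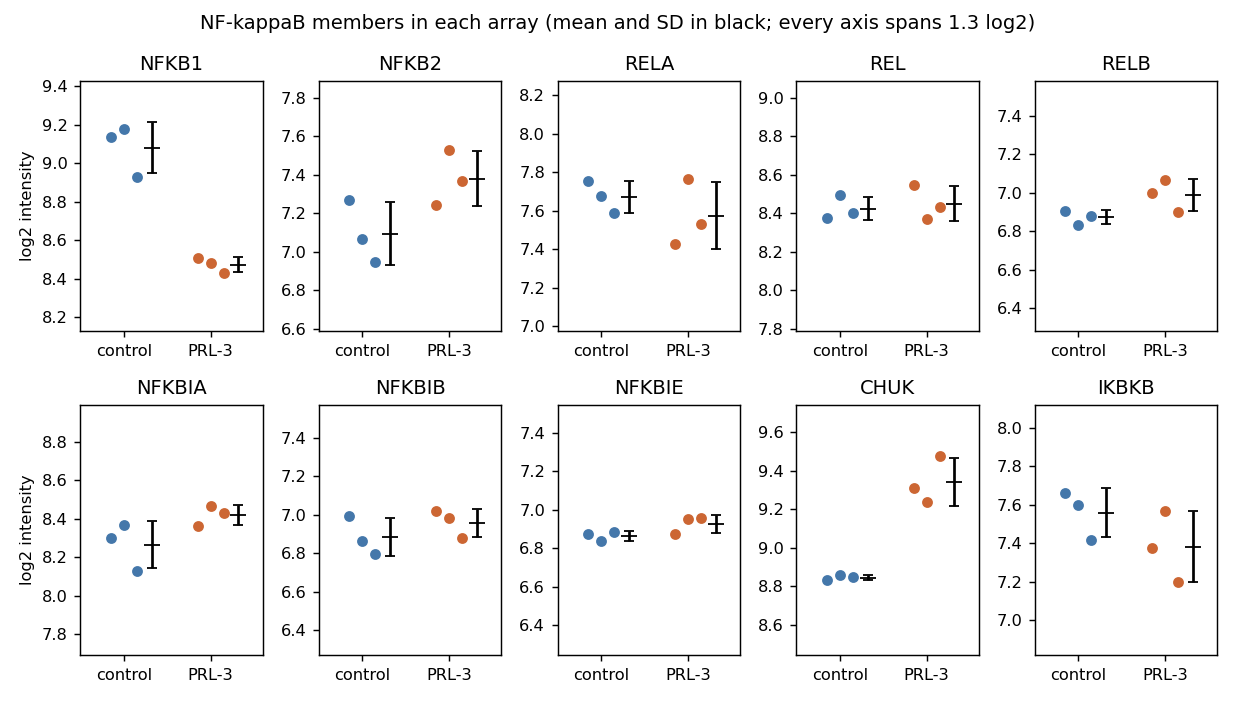
Log2 intensity of each gene in the 3 control arrays (blue points) and 3 PRL-3 arrays (orange points), with the mean and SD of each group in black; every vertical axis spans the same width. NFKB1 sits at 8.43 to 8.51 with PRL-3 against 8.93 to 9.18 in control, CHUK at 9.24 to 9.48 against 8.83 to 8.86, and the groups of the other 8 genes overlap.

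An exact two-sided permutation test over the 6 arrays gave p = 0.1 for NFKB1 and for CHUK, the smallest that 3 against 3 can give. With each single array left out NFKB1 ranged from -0.68 to -0.56 and CHUK from 0.43 to 0.55, and both stayed past the threshold in each of these 6 limma fits (adjusted p of at most 0.0292 and 0.0469). Without control 3 NFKB1 differed by -0.68 (adjusted p = 0.00253, limma) and CHUK by 0.50 (adjusted p = 0.0174, limma). Without control 1 and PRL-3 5 together, an alternative added after seeing the values, NFKB1 differed by -0.59 (adjusted p = 0.0201, limma) and CHUK by 0.54 (adjusted p = 0.0172, limma). An unequal-variance test, which takes each gene's spread from its own 6 values, ended both calls (adjusted p = 0.2 for NFKB1 and 0.244 for CHUK).

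**Figure D2:**
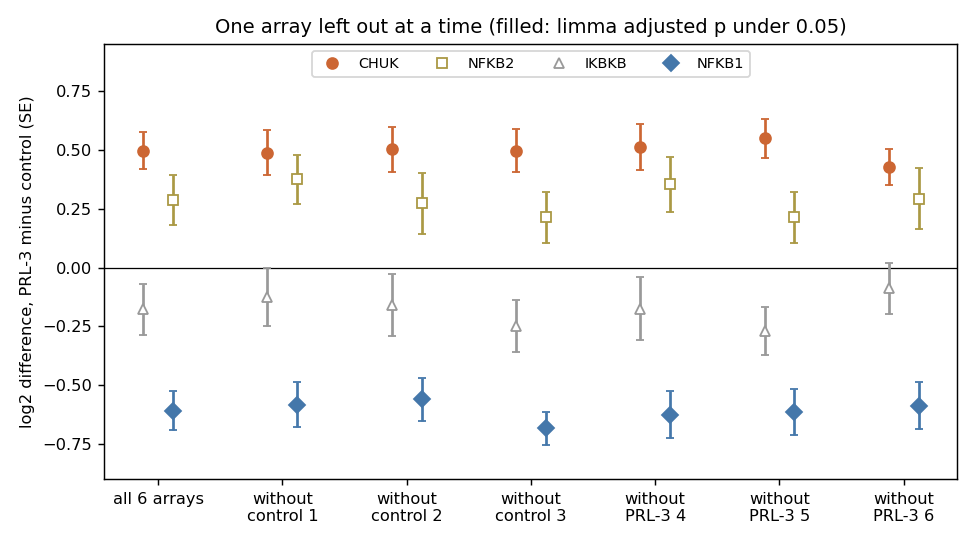
Log2 difference (PRL-3 minus control, bars SE) of CHUK, NFKB2, IKBKB and NFKB1 with all 6 arrays and with each array left out; filled symbols mark limma adjusted p under 0.05. NFKB1 (-0.68 to -0.56) and CHUK (0.43 to 0.55) are filled throughout, and NFKB2 and IKBKB are open throughout.

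The count of 1 higher and 1 lower among 10 genes stands beside 4.58% of all genes higher and 3.11% lower with PRL-3, or 7.69% in either direction. The groups of arrays did not overlap in 2 of the 10, against 24.3% of all genes. The median difference of the 10 genes was 0.07, and that of all genes was -0.02 (log2). All 10 lay above the median level of all genes and so passed both filters on dim genes.

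The other subunits did not pass. NFKB2, the precursor of p52 in the alternative route, read 7.27, 7.06 and 6.95 in control and 7.24, 7.53 and 7.37 with PRL-3 (log2 intensity). PRL-3 4 lay just below control 1, so the groups overlapped by that pair alone. The difference was 0.29 ± 0.107 (log2, SE, 95% interval 0.04 to 0.53) with adjusted p = 0.172 in limma. Array weights called 2122 of all 18377 genes higher and 2303 lower, against 842 and 571 without weights. With these weights NFKB2 was past the threshold too (limma adjusted p = 0.0386). RELB, its partner, read 6.90, 6.83 and 6.88 in control and 7.0, 7.07 and 6.90 with PRL-3 (log2 intensity). PRL-3 6 lay within the control range and the other PRL-3 arrays above it. RELB differed by 0.12 (95% interval -0.05 to 0.28, log2) with adjusted p = 0.439 in limma.

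RELA, the p65 subunit that carries a transactivation domain, read 7.75, 7.68 and 7.59 in control and 7.43, 7.77 and 7.53 with PRL-3 (log2 intensity). PRL-3 5 was the highest of the 6 arrays and PRL-3 4 the lowest. RELA differed by -0.10 (95% interval -0.33 to 0.13, log2), with adjusted p = 0.679 in limma. REL, the c-Rel subunit known from lymphoid cells, read 8.38, 8.49 and 8.40 in control and 8.55, 8.37 and 8.44 with PRL-3. The REL groups overlapped almost fully, at a difference of 0.03 (95% interval -0.15 to 0.20, log2, adjusted p = 0.909 in limma). Without PRL-3 4 its sign turned, to -0.022.

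Within each array, the log2 value of NFKB1 minus that of REL was 0.76, 0.69 and 0.53 in control and -0.04, 0.11 and -0.01 with PRL-3. NFKB1 minus RELA was 1.38, 1.5 and 1.34 in control and 1.08, 0.72 and 0.90 with PRL-3. Both ratios were lower in every PRL-3 array than in every control array. These pairs were chosen after the values were seen and carry no test, and probe brightness sets their absolute size, so only their change between groups can be read.

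The inhibitor genes did not pass. NFKBIA, the IkB-alpha gene and the best known feedback target of the pathway, read 8.30, 8.37 and 8.13 in control and 8.36, 8.47 and 8.43 with PRL-3 (log2 intensity). Control 3 was low and control 2 lay just above PRL-3 4. NFKBIA differed by 0.15 ± 0.0811 (log2, SE, 95% interval -0.03 to 0.34) with adjusted p = 0.357 in limma. NFKB1 minus NFKBIA within each array was 0.83, 0.81 and 0.80 in control and 0.14, 0.02 and 0.00 with PRL-3 (log2). That ratio was the steadiest of those computed within the control group, with an SD of 0.0161, against 0.0788 within the PRL-3 group. Both genes read lowest in control 3 among the control arrays, and a link between them was not tested.

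NFKBIB, the IkB-beta gene, read 6.99, 6.86 and 6.79 in control and 7.02, 6.98 and 6.88 with PRL-3 (log2 intensity). It differed by 0.08 (95% interval -0.10 to 0.26, log2, adjusted p = 0.69 in limma), and the groups overlapped. NFKBIE, the IkB-epsilon gene, read 6.87, 6.83 and 6.88 in control and 6.87, 6.95 and 6.96 with PRL-3. PRL-3 4 lay inside the control range, and the difference was 0.06 (95% interval -0.09 to 0.21, log2, adjusted p = 0.687 in limma). For these 2 inhibitors the intervals leave out an intensity change of the size seen in NFKB1 or CHUK, in either direction. Their control levels were at percentiles 52.4 and 51.8 of all genes, against 89.6 for NFKB1 and 87.2 for CHUK. A change in transcript may be understated at the lower level, so the intervals speak of intensity only.

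IKBKB, the IKK-beta kinase of the canonical route, read 7.66, 7.60 and 7.42 in control and 7.37, 7.57 and 7.20 with PRL-3 (log2 intensity). PRL-3 5 lay within the control range and the other PRL-3 arrays below it. IKBKB differed by -0.18 ± 0.109 (log2, SE, 95% interval -0.43 to 0.07) with adjusted p = 0.444 in limma. Array weights, which called 2303 of all 18377 genes lower against 571 without weights, put IKBKB past the threshold (-0.26, limma adjusted p = 0.031). CHUK minus IKBKB within each array was 1.17, 1.26 and 1.43 in control and 1.93, 1.67 and 2.28 with PRL-3 (log2). That ratio was higher in every PRL-3 array than in every control array, again with no test.

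**Figure D3:**
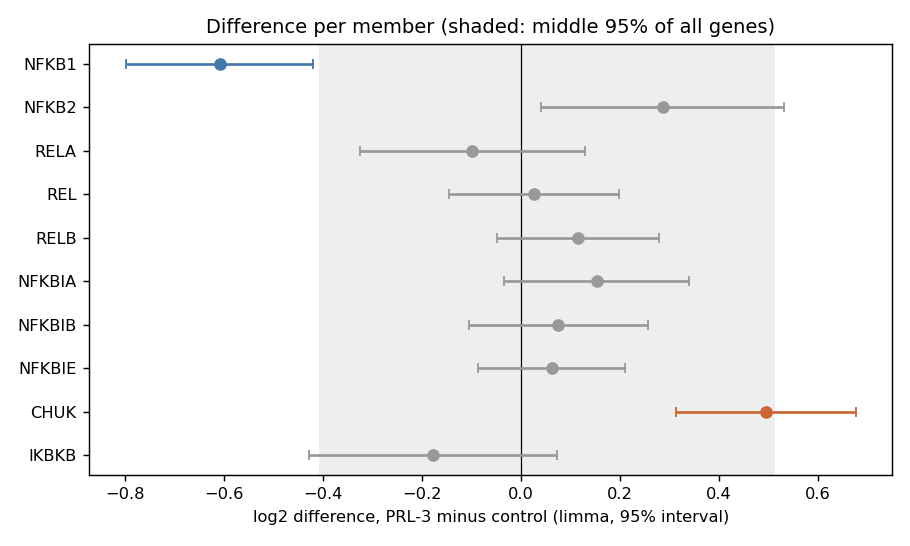
Log2 difference (PRL-3 minus control) of each gene with its 95% interval from limma; blue marks lower, orange higher and grey genes that did not pass, and the shaded band holds the middle 95% of all genes (-0.40 to 0.51). NFKB1 at -0.61 lies outside the band, and CHUK at 0.50 lies just inside its upper edge.

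The other genes of the pathway were read from 7 lists ordered by role, with 127 genes measured, each counted once. Of these, 10 were higher, 6 lower and 111 did not pass, which is 12.6% called against 7.69% of all genes. The lists were chosen with earlier results of these data known, so this comparison is not independent of that choice. Single arrays moved these counts. They were 4 higher and 1 lower without control 1, 3 and 1 without control 2, and 7 and 9 without control 3. Without PRL-3 4 they were 4 and 1, without PRL-3 5 8 and 6, and without PRL-3 6 5 and 2. Calls over all 18377 genes, 842 higher and 571 lower with all 6 arrays, moved too. They were 571 and 302 without control 1, 388 and 178 without control 2, and 791 and 747 without control 3. Without PRL-3 4 they were 405 and 199, without PRL-3 5 792 and 466, and without PRL-3 6 431 and 228. IL1RAP, TLR4, RIPK2 and IL18 kept their call whichever single array was left out. The other 12 lost it without control 2, with adjusted p from 0.0827 to 0.158 in limma, and MAP3K7 and CD69 lost it in each of the 6 fits. The unequal-variance test called 0 of the 127, where 23 had an unadjusted p under 0.05. Over all 18377 genes that test called 7 higher and 4 lower. The share of all genes with such an unadjusted p is not given here, so neither count is a result about the lists.

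Of the ligands 1 of 9 was higher and 0 lower, at a median difference of -0.02. It was IL18, an inflammatory cytokine of the interleukin-1 family, which read 7.57, 7.75 and 7.41 in control and 8.31, 8.21 and 8.15 with PRL-3 (log2 intensity). Its groups stood clear of each other, at a difference of 0.65 ± 0.0982 (log2, SE, adjusted p = 0.007, limma). Of the receptors 2 of 24 were higher and 1 lower, at a median of -0.0024. IL1RAP, the shared chain of the receptors for interleukin-1 and interleukin-33, read 7.27, 7.15 and 7.04 in control and 8.0, 8.31 and 8.10 with PRL-3. It rose by 0.98 ± 0.1 (log2, SE), or 1.97-fold, with adjusted p = 0.00138 in limma. TLR4, the receptor for bacterial lipopolysaccharide, moved the other way, from 7.44, 7.5 and 7.34 in control to 6.85, 6.88 and 6.58 with PRL-3. It fell by 0.66 on the log2 scale (adjusted p = 0.00584, limma). TLR8, a sensor of single-stranded RNA, rose by 0.36 from a low level (5.23 in control, adjusted p = 0.0389, limma).

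Among adaptors and kinases upstream of IKK 3 of 21 were higher and 3 lower, at a median of -0.02. RIPK2, the kinase that relays signals of the NOD receptors, read 8.34, 8.32 and 8.24 in control and 8.84, 8.91 and 8.92 with PRL-3 (log2 intensity). It rose by 0.59 ± 0.0667 (log2, SE, adjusted p = 0.00201, limma), and the groups were far apart for their spread. MAP3K7, the TAK1 kinase that activates IKK, rose by 0.29 (adjusted p = 0.0292, limma). TAB2, a binding partner of TAK1 that was named after its value was seen, rose by 0.36 (adjusted p = 0.0255, limma). The 3 that fell were MYD88, the adaptor of interleukin-1 and Toll-like receptors (-0.45, adjusted p = 0.0457), TRAF3, an adaptor that keeps MAP3K14 protein low (-0.40, adjusted p = 0.0386), and IRAK3, a kinase-like inhibitor of the same receptors (-0.39, adjusted p = 0.0246, all limma). MAP3K14 itself differed by -0.08 (95% interval -0.24 to 0.07, log2, adjusted p = 0.6 in limma).

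**Figure D4:**
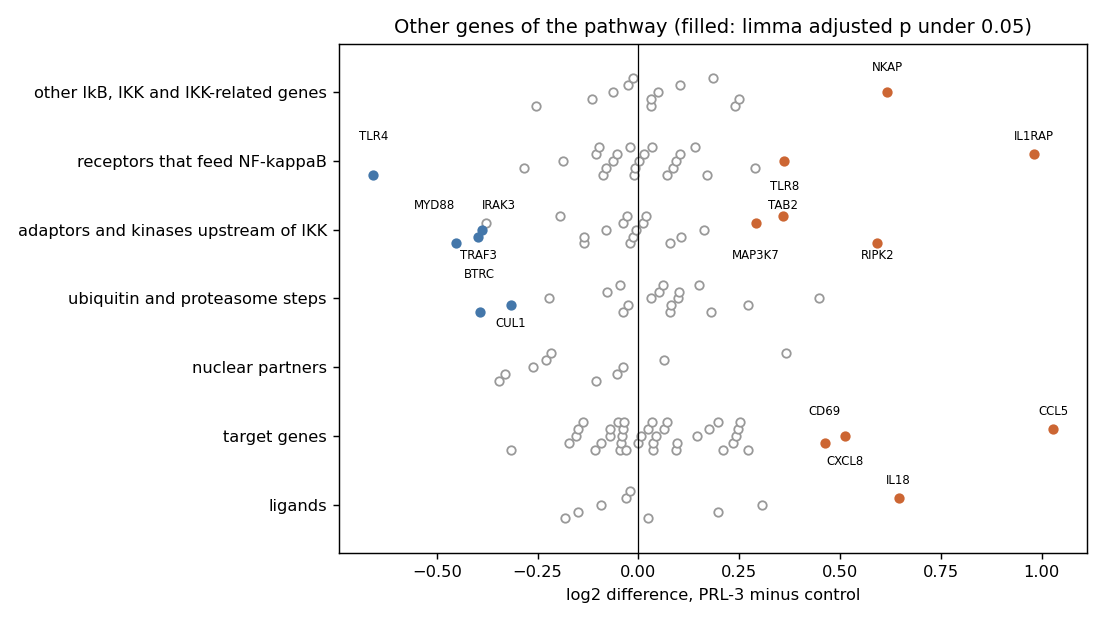
Log2 difference (PRL-3 minus control) of each measured gene in the 7 lists of pathway genes, 1 point a gene; filled orange points were higher and filled blue points lower at limma adjusted p under 0.05, and open points did not pass. IL1RAP (0.98) and CCL5 (1.03) stand farthest to the right and TLR4 (-0.66) farthest to the left.

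Among other IkB, IKK and IKK-related genes 1 of 13 was higher and 0 lower, at a median of 0.03. NKAP, described as an activator of NF-kappaB and a nuclear RNA-binding protein, rose by 0.62 ± 0.131 (log2, SE, adjusted p = 0.028, limma). IKBKG, the regulatory subunit of the IKK complex, differed by -0.06 (95% interval -0.30 to 0.18, log2, adjusted p = 0.821 in limma). BCL3, a nuclear IkB protein that binds p50 and p52 dimers, differed by 0.03 (95% interval -0.27 to 0.34, log2, adjusted p = 0.94 in limma). In the ubiquitin and proteasome list 0 of 18 were higher and 2 lower, at a median of 0.06. These were BTRC and CUL1. BTRC, a subunit that recognises phosphorylated IkB, differed by -0.39 ± 0.074 (log2, SE, adjusted p = 0.0175, limma). CUL1, the scaffold of the same ligase, differed by -0.32 ± 0.0718 (log2, SE, adjusted p = 0.0352, limma). FBXW11, of the same list, differed by -0.04 and did not pass. BTRC read 8.82, 8.73 and 8.64 in control and 8.28, 8.39 and 8.34 with PRL-3, with no overlap. TNFAIP3, the A20 enzyme that shuts the pathway off and a target of it, differed by 0.27 (95% interval 0.06 to 0.48, log2, adjusted p = 0.134 in limma). Among nuclear partners 0 of 10 passed limma, and the unequal-variance test called 0. An unadjusted p under 0.05 in limma was found for 6 of the 10, against 36 of all 127 listed genes, which include these 10. The share of all genes with such a p is not given here, so the 6 cannot be read as a result about this list. Array weights called 1 higher and 5 lower, and 2122 higher and 2303 lower of all 18377 genes. The median of the nuclear partners was -0.16.

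Of 39 measured target genes 3 were higher and 0 lower, which is 7.69% and equals the share over all genes, at a median of 0.03. CCL5, a chemokine for T cells and monocytes, read 6.82, 6.55 and 6.67 in control and 7.43, 8.19 and 7.5 with PRL-3 (log2 intensity). PRL-3 5 stood well above its group, so the rise of 1.03 carried an SE of 0.187 (adjusted p = 0.0152, limma). CXCL8, the neutrophil chemokine interleukin-8, rose by 0.51 ± 0.104 (adjusted p = 0.0237), and CD69, an early activation antigen, by 0.46 ± 0.111 (adjusted p = 0.0433, both log2, SE, limma). TNFAIP3, TRAF1, TNF, LTA, LTB, IL1A and IL1B each stand in more than 1 of these lists and were counted once in the total.

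NFKB1 was read beside its measured neighbours on chromosome 4. Of the 5 genes on either side, 3 of 10 passed, against 7.69% of all genes. SLC39A8, a zinc and manganese importer and the nearest measured gene before NFKB1, read 10.32, 10.34 and 10.35 in control and 9.85, 9.92 and 9.83 with PRL-3 (log2 intensity). It fell by 0.47 on the log2 scale (adjusted p = 0.00431, limma). MANBA, a lysosomal mannosidase and the nearest measured gene after NFKB1, went the other way. It read 8.52, 8.56 and 8.61 in control and 9.23, 9.20 and 9.44 with PRL-3, and rose by 0.73 ± 0.0822 (log2, SE, adjusted p = 0.00205, limma). SLC9B2, a sodium and proton exchanger, fell by 0.58 on the log2 scale (adjusted p = 0.00352, limma). These 3 neighbours stayed past the threshold with each single array left out and lost their call in the unequal-variance test (adjusted p from 0.122 to 0.166). The other 7 differed by -0.14 to 0.07.

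**Figure D5:**
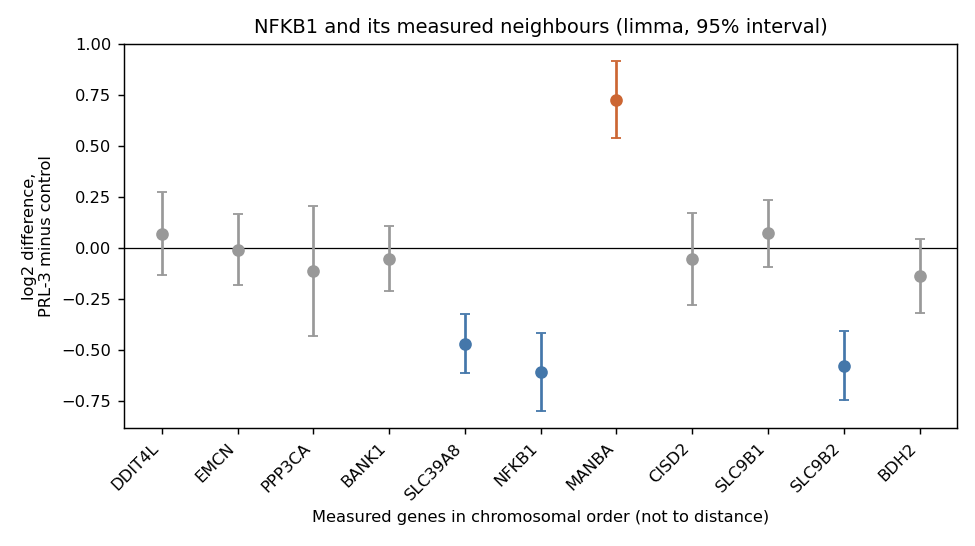
Log2 difference (PRL-3 minus control, 95% interval from limma) of NFKB1 and the 5 measured genes on either side, in chromosomal order and not to distance; blue marks lower, orange higher and grey genes that did not pass. NFKB1 (-0.61) and SLC39A8 (-0.47) are lower while MANBA, next to NFKB1, is higher (0.73).

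The genes whose profile over the 6 arrays was most like that of NFKB1, by the root mean square difference of log2 values after each gene was centred on its mean, were SRPX2 (0.0345), E2F8 (0.0372) and CYP2J2 (0.0446). SRPX2 is a secreted protein, E2F8 a transcriptional repressor of cell cycle genes and CYP2J2 an enzyme of arachidonic acid metabolism. These genes were picked on the same 6 values, so a shape shared with NFKB1 follows from the choice and is no separate result. That shape was a lower level with PRL-3, the lowest control value in control 3 and a narrower PRL-3 group. E2F8, for example, read 8.37, 8.47 and 8.22 in control and 7.85, 7.83 and 7.73 with PRL-3 (log2 intensity).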

How the data were processed

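Total RNA of 6 samples, extracted with a Qiagen RNeasy kit and labelled with Nugen Applause WT and Encore biotin kits per the labels, was hybridised to human expression arrays. The deposited table gives linear intensity values of 28869 probe sets. How the authors summarised, background-corrected and normalized them is not given in the sources used here; the close medians were taken to show normalized values, so a change shared by most genes would be lost. Precision is limited by having 3 arrays a group.

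The test was a two-group linear model on log2 intensities with moderated variances (limma 3.58.1, R 4.3.3), two-sided, with Benjamini-Hochberg adjustment over all 18377 genes and a threshold of 0.05. Errors after a level are SD and after a difference moderated SE. Of the probe sets, 19310 had exactly 1 symbol in the platform annotation; the brightest stood for each gene. Promoters came from RefSeq GRCh38.p14. The fit was tested on simulated data with 18377 genes. Simulated log2 changes of 0.5 were recovered in 50.7% of cases, of 1 in 98.5% and of 2 in 100.0%, and 8 genes were called falsely. The simulated noise was independent between genes and arrays. These figures therefore cannot show recovery or false calls where genes vary together within an array or a culture.

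The members and lists were chosen with earlier results of these data known. Named were all 10 members, up to 4 called genes per list with the largest difference, IKBKG, MAP3K14, TNFAIP3, BCL3, MAP3K7 and PTP4A3, 5 neighbours on either side of the member with the smallest adjusted p, and the 3 genes most like it. Of 141 listed genes 14 had no probe set with a single symbol and are not in the counts above. Probe sets with several symbols were fitted apart. Among them 8 carried a listed gene, with 0 higher and 0 lower in limma and differences from -0.20 to 0.10 (log2). Alternatives were 2 other normalizations, 3 other variance models, 2 filters on dim genes, 2 treatments of probe sets, a pseudocount of 16 and leaving out arrays. Figures used matplotlib 3.10.9 in Python 3.11.15.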

Additional observations from a re-analysis of the deposited data

How the results depend on the processing

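NFKB1 and CHUK kept their direction in all 17 alternatives and stayed past the threshold in 16, the exception being the unequal-variance test. Leaving out 1 array left 1 member higher and 1 lower each time. Array weights gave 2 higher (CHUK, NFKB2) and 2 lower (NFKB1, IKBKB), and the unequal-variance test 0 and 0. In that test the unadjusted p was under 0.05 for 2 of 10, and the share of all genes with such a p is not given here. REL ranged from -0.022 (without PRL-3 4, its sign turned) to 0.067 with single arrays left out; the other members kept theirs in all alternatives.

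Over all genes 842 were higher and 571 lower; array weights gave 2122 and 2303, the unequal-variance test 7 and 4, and leaving out 1 array 388 to 792 and 178 to 747, with fewer samples. Of the 127 other pathway genes, 10 higher and 6 lower became 20 and 18 with array weights and 0 and 0 in the unequal-variance test. Leaving out 1 array gave 3 to 8 higher and 1 to 9 lower. An intensity trend with robust variances gave 3 lower, without CUL1, MYD88 and TRAF3, and leaving out control 1 and PRL-3 5 together, added after seeing the data, also gave 3 lower. The cause was not tested. No paired analysis was made because the labels, which number the arrays 1 to 6 in sequence, state no pairing between the groups. Intensities carry no detection call, so a small change of a dim gene may be understated.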
